A study of Mus musculus with 2 samples.

Results

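Checkpoint ligands and B7 molecules were described as 8 genes, Cd274, Pdcd1lg2, Lgals9, Pvr, Nectin2, Cd80, Cd86 and Icosl, out of 32285 genes counted. They were taken by name, and no measured value entered the rule, but the list was set with earlier results of these data known. All 8 were present in both count matrices. Live CD45+ cells had been sorted from liver tumors of the lenvatinib-resistant Trp53KO/MYCOE model, in which a plasmid mix carrying human MYC, a guide against Trp53 and sleeping beauty transposase is given by hydrodynamic tail vein injection to male wild-type C57BL/6J mice at 6 to 8 weeks of age. Lenvatinib, a multikinase inhibitor, was given at 30 mg/kg for 25 days from day 12 after the plasmids in all of these mice. Tumors then received either lenvatinib at 30 mg/kg or lenvatinib at 30 mg/kg with palbociclib, an inhibitor of CDK4 and CDK6, at 100 mg/kg (combo). There was 1 library per treatment, how many mice were pooled for it is not given in the sources used here, and treatment and library cannot be told apart. The comparison asks whether palbociclib added to lenvatinib goes with other ligand levels in tumor immune cells.

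PD-L1 (Cd274) and PD-L2 (Pdcd1lg2) bind PD-1 on T cells and dampen T-cell receptor signalling. Cd80 and Cd86 are the B7 molecules that bind the activating receptor CD28 and the inhibitory receptor CTLA-4, and ICOS ligand (Icosl) binds ICOS on activated and regulatory T cells. Galectin-9 (Lgals9) is a sugar-binding protein described as a ligand of TIM-3. PVR and Nectin2 are adhesion proteins that bind the activating receptor CD226. Each also binds some, but not all, of the inhibitory receptors TIGIT, CD96 and PVRIG. In the liver these ligands are known from antigen-presenting cells, tumor cells and stroma, and only the CD45+ compartment was sampled.

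Cell types were set by 1 gene each, with at least 1 UMI (a unique molecular identifier, counted as 1 RNA molecule) of the gate gene and none of the other 6. The lenvatinib and combo libraries held, in that order, 5195 and 3821 T cells (Cd3e), 2532 and 992 NK cells (Ncr1), 540 and 611 B cells (Cd79a), 239 and 480 monocytes/macrophages (Csf1r), 685 and 1512 neutrophils (Csf3r), 39 and 31 cDC1 (Xcr1), and 32 and 7 mature dendritic cells (Fscn1). A further 2713 and 1628 cells had no gate gene, and 2226 and 2531 had several. The markers of each type were highest in its own gate, with an exception in the Fscn1 gate. Under lenvatinib its 5 mature dendritic markers summed to 4129 CPM (a gene's UMIs scaled to all UMIs of the gate), whereas under combo they summed to 115 CPM with 2 of 5 at 0, Ccl22 among them. Siglech, a plasmacytoid dendritic gene, was at 387 CPM and 451 CPM in these cells. The 7 combo cells were therefore called Fscn1-gated cells only, and their values are not read as a difference between treatments. The neutrophil gene S100a8 had a UMI in 93.9% to 100% of the combo cells of every other gate and in 42.8% to 66.7% of the lenvatinib cells. The part of RNA from other cells in the results was not tested. The libraries shared 49 barcodes.

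RefSeq held a promoter for 6 of the members on GRCm38.p6 (mm10), of 250 bases before to 50 after the start. These windows were searched on both strands for the interferon-gamma site TTCNNNGAA, for the interferon-stimulated core (GAAA, any 2 bases, GAAA) and for the AP-1 site TGANTCA. They were found in 8.30%, 3.44% and 7.81% of 32851 promoters. Lgals9 had 2 matches of the interferon-stimulated core, 55 bases before and 15 bases after its start, and Cd80 had 1 AP-1 match 42 bases before its start. No match lay in the windows of Cd274, Pdcd1lg2, Nectin2 and Icosl. The promoters below are those with a match, and that of Cd274 as the gene of PD-L1. A match is a description of the letters only. They run from 250 bases before to 30 after the start, with the matches in capitals, at chr11:78984895-78985174 (minus strand) for Lgals9, chr16:38458683-38458962 (plus strand) for Cd80 and chr19:29367188-29367467 (plus strand) for Cd274.
Lgals9 promoter: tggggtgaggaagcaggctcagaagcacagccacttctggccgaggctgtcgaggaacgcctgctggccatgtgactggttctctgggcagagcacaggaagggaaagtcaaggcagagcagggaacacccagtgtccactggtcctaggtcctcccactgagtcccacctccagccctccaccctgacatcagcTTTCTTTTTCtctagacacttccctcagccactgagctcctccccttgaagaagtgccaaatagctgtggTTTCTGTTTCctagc
Cd80 promoter: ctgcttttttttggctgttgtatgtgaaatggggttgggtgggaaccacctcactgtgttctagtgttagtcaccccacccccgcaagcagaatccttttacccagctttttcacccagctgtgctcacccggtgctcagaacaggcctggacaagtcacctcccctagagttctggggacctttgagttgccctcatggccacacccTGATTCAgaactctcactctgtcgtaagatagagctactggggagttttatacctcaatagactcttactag
Cd274 promoter: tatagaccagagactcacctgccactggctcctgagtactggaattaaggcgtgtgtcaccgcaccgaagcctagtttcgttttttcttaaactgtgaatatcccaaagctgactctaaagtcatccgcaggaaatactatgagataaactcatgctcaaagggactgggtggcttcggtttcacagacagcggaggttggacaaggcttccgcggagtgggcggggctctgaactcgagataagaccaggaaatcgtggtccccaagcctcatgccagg

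In the GENCODE annotation of mm10, Cd274 (chr19:29367455-29388095) and Pdcd1lg2 (chr19:29410919-29471161) lie on the plus strand with 22823 bases between them. Lgals9 (chr11:78962974-78984946), Pvr (chr7:19903578-19921160), Nectin2 (chr7:19716644-19750483) and Cd86 (chr16:36603869-36666081) lie on the minus strand, and Cd80 (chr16:38455561-38496335) and Icosl (chr10:78069302-78083913) on the plus strand. The RefSeq starts used for the promoters of Lgals9, Nectin2, Cd80 and Icosl lie inside the GENCODE spans of these genes. Cd274, Pdcd1lg2, Pvr and Nectin2 each overlap a counted antisense gene. Whether the counting used strand is not given in the sources used here, so reads of these 4 genes and of their antisense partners may not be separated.

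**Figure D1:**
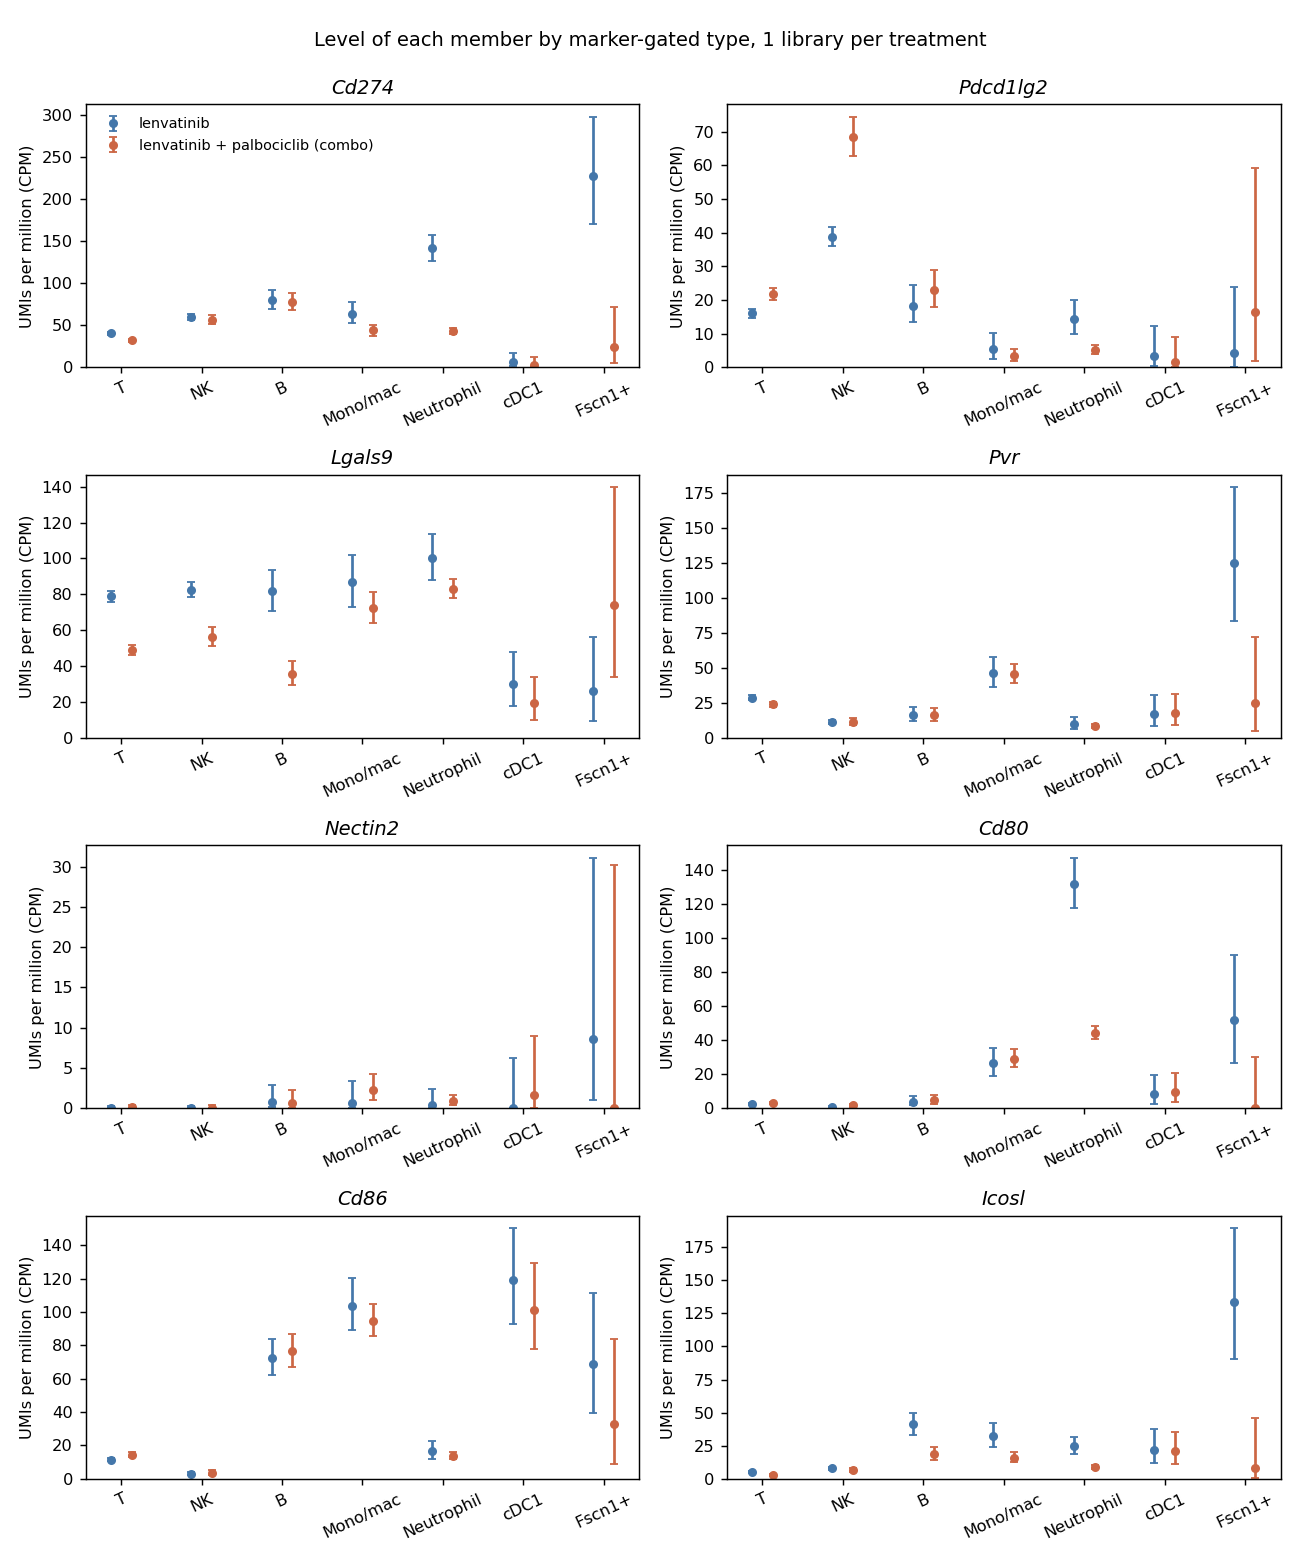
Level of the 8 members in each gated type, in CPM on a linear axis from 0, for lenvatinib (blue) and combo (orange), 1 library each. Points are summed counts and bars are exact Poisson 95% intervals. Cd80 and Cd274 stand out in lenvatinib neutrophils, Pdcd1lg2 in NK cells, and Cd86 in cDC1, monocytes/macrophages and B cells.

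Cd274 was counted 5119 times under lenvatinib and 3502 times under combo. Under lenvatinib, it was at 228 CPM (95% Poisson interval 171 to 298) in Fscn1-gated cells and at 142 CPM (127 to 158) in neutrophils. B cells followed at 80.0 CPM, monocytes/macrophages at 63.9 CPM, NK cells at 59.3 CPM and T cells at 40.4 CPM, and the intervals of B cells, monocytes/macrophages and NK cells overlapped from each to the next. Only 4 UMIs were seen in the 39 cDC1 cells, or 6.71 CPM (1.83 to 17.2). Under combo, B cells were highest at 78.1 CPM (68.7 to 88.5), NK cells were at 56.4 CPM, and neutrophils (43.3 CPM) and monocytes/macrophages (43.8 CPM) were alike within counting error. T cells were at 31.9 CPM and cDC1 at 3.21 CPM, from 2 UMIs. PD-L1 mRNA was thus counted in lymphocytes and myeloid cells of both libraries, and cDC1 was the gate where it was scarcest.

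The ratio of combo to lenvatinib CPM for Cd274 was 0.306 (95% interval of the ratio of 2 counts, 0.266 to 0.352) in neutrophils, 0.686 (0.536 to 0.88) in monocytes/macrophages and 0.788 (0.722 to 0.86) in T cells. NK cells (0.952, 0.852 to 1.06) and B cells (0.976, 0.806 to 1.18) had intervals that held 1. The thinned shares were 7.69% and 5.39% of T cells, with intervals apart, and 12.8% and 7.18% of monocytes/macrophages, with intervals that overlapped. Within T cells, Cd274 was at 32.4 and 30.6 CPM in Cd8a+ Cd4- cells, 73.4 and 47.3 CPM in Cd4+ Cd8a- cells, and 74.2 and 58.2 CPM in Foxp3+ cells, under lenvatinib and combo. The Cd4+ cells stood above the Cd8a+ cells in both libraries. Foxp3+ cells were set without regard to Cd4 and Cd8a, so they may also be among the Cd4+ or Cd8a+ cells. Monocytes/macrophages with a C1qa UMI, a macrophage gene, held 132 and 68.5 CPM, and those without held 51.9 and 42.1 CPM.

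Pdcd1lg2 was highest in NK cells in both libraries. It was at 38.7 CPM (36.0 to 41.6) under lenvatinib and 68.5 CPM (62.9 to 74.4) under combo, a ratio of 1.77 (1.58 to 1.98) from 748 and 552 UMIs. Below NK cells, B cells (18.3 and 23.0 CPM), T cells (16.0 and 21.8 CPM) and, under lenvatinib, neutrophils (14.3 CPM) had overlapping intervals. Monocytes/macrophages were at 5.37 CPM and 3.24 CPM, from 9 and 13 UMIs, and Fscn1-gated cells under lenvatinib had a single UMI, although PD-L2 is known from dendritic cells and macrophages. In cells thinned to 2000 UMIs each, 7.08% (6.08 to 8.19) of NK cells under lenvatinib and 14.4% (12.3 to 16.7) under combo had a Pdcd1lg2 UMI, and unthinned the shares were 21.2% and 35.1%. NK cells had been set as the type that should lack this gene, and were instead its highest. The lowest of the larger gates were monocytes/macrophages, at 1.60% and 0.957% after thinning, and neutrophils, at 2.61% and 0.922%. Median depths in monocytes/macrophages were 4997 and 6148 UMIs, against 6858 and 6833 in NK cells.

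T cells also held more Pdcd1lg2 under combo, with a ratio of 1.36 (1.21 to 1.53), and neutrophils less, at 0.356 (0.229 to 0.561). Within T cells, the ratio was 1.51 (1.26 to 1.82) in Cd8a+ Cd4- cells, from 11.1 to 16.7 CPM, and 0.718 (0.521 to 0.984) in Cd4+ Cd8a- cells, from 37.1 to 26.6 CPM. The thinned share was 2.00% (1.51 to 2.60) and 3.16% (2.44 to 4.03) in the Cd8a+ cells, with overlapping intervals. In the Cd4+ cells it was 6.61% and 6.62%, so the lower CPM there was not seen in the share. Foxp3+ cells were at 49.7 and 43.7 CPM, the second of these from 15 UMIs. They numbered 388 under lenvatinib and 57 under combo, against 502 and 445 Cd4+ Cd8a- cells. The part of Foxp3+ cells in the ratio of the Cd4+ cells was not tested.

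Lgals9 was spread evenly over the larger gates under lenvatinib and was lower under combo in the 3 lymphocyte gates. Under lenvatinib, it lay between 78.8 CPM in T cells and 100.1 CPM in neutrophils in the 5 largest gates, with NK cells at 82.5, B cells at 81.7 and monocytes/macrophages at 86.6 CPM. Under combo, T cells were at 49.1 CPM (ratio 0.623, 0.583 to 0.667), NK cells at 56.4 CPM (0.684, 0.615 to 0.76) and B cells at 35.4 CPM (0.433, 0.341 to 0.549). Monocytes/macrophages (72.2 CPM, 0.834, 0.681 to 1.02) and neutrophils (83.2 CPM, 0.831, 0.72 to 0.962) were closer to their lenvatinib levels. The same direction was seen in Cd8a+ Cd4- T cells, at 78.8 and 49.8 CPM, and in Cd209a+ cells without a gate gene, at 74.4 and 34.5 CPM. Thinned shares were 14.5% and 8.94% of T cells, 15.3% and 11.2% of NK cells, and 11.9% and 8.19% of B cells, and the intervals overlapped in B cells. When each B cell was given the same weight, the B-cell ratio was 0.694, no longer past 2-fold. The levels were lower in cDC1, at 30.2 and 19.3 CPM from 18 and 12 UMIs, and in Fscn1-gated cells under lenvatinib, at 25.8 CPM from 6 UMIs.

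Pvr was highest in Fscn1-gated cells under lenvatinib, at 125 CPM (83.5 to 179), and next in monocytes/macrophages, at 46.0 CPM (36.3 to 57.5) under lenvatinib and 45.3 CPM (39.0 to 52.4) under combo. T cells were at 28.7 and 23.8 CPM, with a ratio of 0.83 (0.749 to 0.92). NK cells (10.9 and 11.5 CPM) and neutrophils (10.1 and 8.17 CPM) were lowest, and their ratios, 1.06 (0.819 to 1.35) and 0.809 (0.512 to 1.33), had intervals that held 1. Among cells with no gate gene, those with Siglech held 51.45 and 47.7 CPM and those with Cd209a, a gene of cDC2 cells, held 67.4 and 44.75 CPM. In B cells (16.2 and 15.9 CPM) and monocytes/macrophages the interval of the ratio held 1 as well. C1qa+ monocytes/macrophages had 4 and 15 UMIs of Pvr, a ratio of 3.56 (1.13 to 14.7). After thinning, 10.1% and 10.53% of monocytes/macrophages had a Pvr UMI, against 2.23% and 2.25% of NK cells.

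Nectin2 was close to undetected in these immune cells. It was counted 21 times in 14201 lenvatinib cells and 47 times in 11613 combo cells, or 0.221 and 0.521 CPM, a ratio of 2.36 (1.38 to 4.16). No single-gene gate held more than 10 UMIs in a library, and the largest counts were in combo neutrophils (10 UMIs) and combo monocytes/macrophages (9 UMIs). Under combo, the interval of monocytes/macrophages (2.24 CPM, 1.02 to 4.25) lay above those of T cells (0.162 CPM, 0.0441 to 0.415, from 4 UMIs) and NK cells (0 UMIs, 0 to 0.457). Under lenvatinib, 2 UMIs in Fscn1-gated cells gave 8.60 CPM (1.04 to 31.1), above T cells at 0.0828 CPM (0.0171 to 0.242). These orders rest on very few molecules.

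Cd80 was highest in neutrophils among the 5 larger gates in both libraries. It was at 132 CPM (117 to 147) in neutrophils under lenvatinib and 44.4 CPM (40.6 to 48.4) under combo, a ratio of 0.337 (0.292 to 0.389) from 313 and 505 UMIs. Monocytes/macrophages came next among the gates that could be compared, at 26.3 CPM (19.1 to 35.3) and 29.1 CPM (24.1 to 34.9), and their intervals lay apart from the neutrophil interval in both libraries. T cells (2.62 and 3.04 CPM), B cells (3.66 and 4.78 CPM) and NK cells (0.776 and 1.61 CPM) were near the bottom. With cells thinned to 2000 UMIs, 25.7% (21.9 to 29.8) of neutrophils under lenvatinib and 11.8% (10.1 to 13.6) under combo had a Cd80 UMI, against 0.0421% and 0.306% of NK cells.

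Cd86 showed another distribution, with antigen-presenting cells on top in both libraries. cDC1 held 119 CPM (93.1 to 150) and 101 CPM (77.7 to 129), monocytes/macrophages 104 CPM (89.0 to 121) and 94.8 CPM (85.6 to 105), and B cells 72.3 CPM (62.1 to 83.8) and 76.5 CPM (67.2 to 86.9). Neutrophils were at 16.8 and 13.8 CPM, T cells at 11.5 and 14.5 CPM, and NK cells at 2.90 and 3.47 CPM. In T cells the ratio was 1.26 (1.09 to 1.45), and in the other gates of the ratio plot the interval held 1. C1qa+ monocytes/macrophages were at 164 and 209 CPM and C1qa- cells at 93.3 and 86.8 CPM. In Cd209a+ cells without a gate gene, Cd86 was at 45.5 and 17.7 CPM, a ratio of 0.389 (0.217 to 0.67) from 52 and 19 UMIs.

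Icosl was lower under combo in 4 gates. It was at 41.0 CPM (33.4 to 49.9) and 18.8 CPM (14.3 to 24.3) in B cells, a ratio of 0.459 (0.327 to 0.638). Monocytes/macrophages held 32.3 and 15.9 CPM (0.494, 0.339 to 0.723), neutrophils 24.4 and 8.70 CPM (0.357, 0.255 to 0.502) and T cells 4.75 and 2.75 CPM (0.58, 0.431 to 0.772). For monocytes/macrophages, the ratio was 0.752 when each cell was given the same weight. In that gate the 3 cDC2 markers summed to 671 and 340 CPM, the cDC1 markers to 671 and 383 CPM and the monocyte/macrophage markers to 5501 and 10584 CPM, and their part in the result was not tested. Thinned shares of cells with an Icosl UMI were 9.17% and 5.05% of B cells, 5.85% and 4.55% of monocytes/macrophages, 4.42% and 2.70% of neutrophils and 0.902% and 0.565% of T cells, and the intervals of the treatments overlapped in each of these 4 gates. NK cells (0.82, 0.587 to 1.13) and cDC1 (0.956, 0.408 to 2.24) had intervals that held 1. The thinned share of NK cells was 1.77% (1.28 to 2.38) and 0.51% (0.166 to 1.19), from 42 and 5 cells. Cd209a+ cells without a gate gene were at 35.9 and 11.2 CPM, from 41 and 12 UMIs. In lenvatinib Fscn1-gated cells Icosl reached 133 CPM (90.6 to 189), its highest level, and 202 CPM in the 22 of those 32 cells that also had a UMI of Ccr7, a marker of mature dendritic cells. Cd274 reached 317 CPM, Pvr 135 CPM, Cd86 101 CPM and Cd80 80.9 CPM in the same 22 cells.

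**Figure D2:**
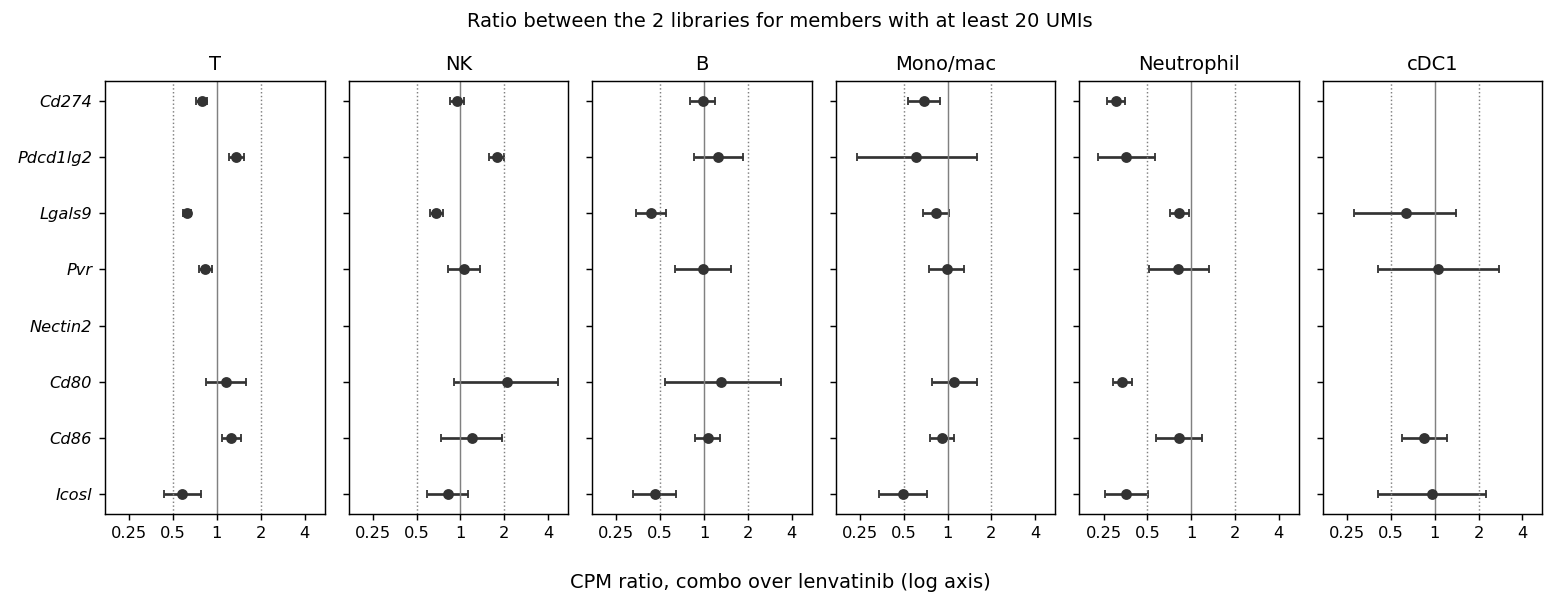
Ratio of combo to lenvatinib CPM (log axis) for members with at least 20 UMIs over both libraries, in 6 gated types. Bars are exact conditional 95% intervals for counting error, the solid line marks 1 and the dotted lines mark 0.5 and 2. Points left of 0.5 lie in neutrophils (Cd274, Pdcd1lg2, Cd80, Icosl), B cells (Lgals9, Icosl) and monocytes/macrophages (Icosl).

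With 1 library per treatment there is no test, and a gene was counted as past 2-fold when its CPM ratio was at least 2 or at most 0.5 with at least 20 UMIs over both libraries. In T cells 0 of 7 members were past 2-fold, against 7.86% of all genes, and the members' median log2 ratio was -0.27 against -0.13. In NK cells 1 of 7 was, against 7.46%, namely Cd80, from 15 and 13 UMIs and with an interval that held 1 (0.91 to 4.68). In B cells 2 of 7 were, both lower under combo, against 13.3%, and in monocytes/macrophages 1 of 7 was, against 12.6%. In cDC1 0 of 4 were, against 8.55%. In neutrophils 4 of 7 were, all lower under combo, against 20.6% of genes, with a median log2 ratio of -1.49 for the members and -0.45 for all genes. Over all cells 1 of 8 was, Nectin2, against 14.5%. In Fscn1-gated cells, with 7 cells under combo, 39.9% of all genes tested were past 2-fold, and the members were not counted. In neutrophils, and in B cells with 2 members, the members' share stood above that of all genes. In T cells, NK cells, monocytes/macrophages and cDC1 at most 1 member was past 2-fold. Nectin2 passed the minimum of 20 UMIs only over all cells.

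The size of the neutrophil difference depended on the scale. Neutrophils held 3472 UMIs per cell on average under lenvatinib and 7529 under combo. As UMIs per cell, the ratio was 0.663 for Cd274, 0.731 for Cd80, 0.773 for Pdcd1lg2 and 0.773 for Icosl. It was 1.80 for Lgals9, 1.76 for Pvr and 1.78 for Cd86. On that scale 0 of 7 members were past 2-fold, against 30.4% of all genes. The median log2 ratio of all genes was 0.67 per cell, against -0.45 in CPM. Cd274, Cd80, Pdcd1lg2 and Icosl lay below it on both scales. With every Csf3r+ cell taken, whatever other gate genes it held, the CPM ratio was 0.459 for Cd274, 0.595 for Cd80, 0.63 for Pdcd1lg2 and 0.687 for Icosl, which left 1 of 8 members past 2-fold beside 17.5% of genes, with a median of -0.40 over all genes. Thinned to the same 2000 UMIs, 20.5% (17.02 to 24.3) of lenvatinib neutrophils and 9.79% (8.29 to 11.5) of combo neutrophils had a Cd274 UMI.

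Other measurements moved with this result. The 5 neutrophil markers took 113051 CPM of neutrophil-gated RNA under lenvatinib and 238314 CPM under combo, and with them left out of the total the ratios were 0.356 for Cd274 and 0.392 for Cd80. In the same cells, the 5 T-cell markers summed to 263 and 122 CPM and the 5 NK markers to 306 and 51.3 CPM, with the gate gene itself at 0 by construction. The 7 monocyte/macrophage markers went the other way, at 2443 and 5963 CPM, with Csf1r at 0 by construction. Cd80 was at most 4.78 CPM in T, NK and B cells of either library, and at 26.3 and 29.1 CPM in monocytes/macrophages. The part of these measurements in the result was not tested.

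Splitting neutrophils by Ptgs2, the gene of cyclooxygenase-2, gave the same direction on each side. Ptgs2+ neutrophils, 430 and 717 cells, held Cd274 at 194 and 71.6 CPM and Cd80 at 196 and 74.2 CPM. Ptgs2- neutrophils, 255 and 795 cells, held Cd274 at 87.0 and 26.6 CPM and Cd80 at 64.6 and 26.7 CPM. In both libraries the Ptgs2+ cells thus had more of both ligands than the Ptgs2- cells, with intervals apart. Icosl had the same order, at 33.7 and 12.8 CPM in Ptgs2+ cells and 14.7 and 6.29 CPM in Ptgs2- cells.

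**Figure D3:**
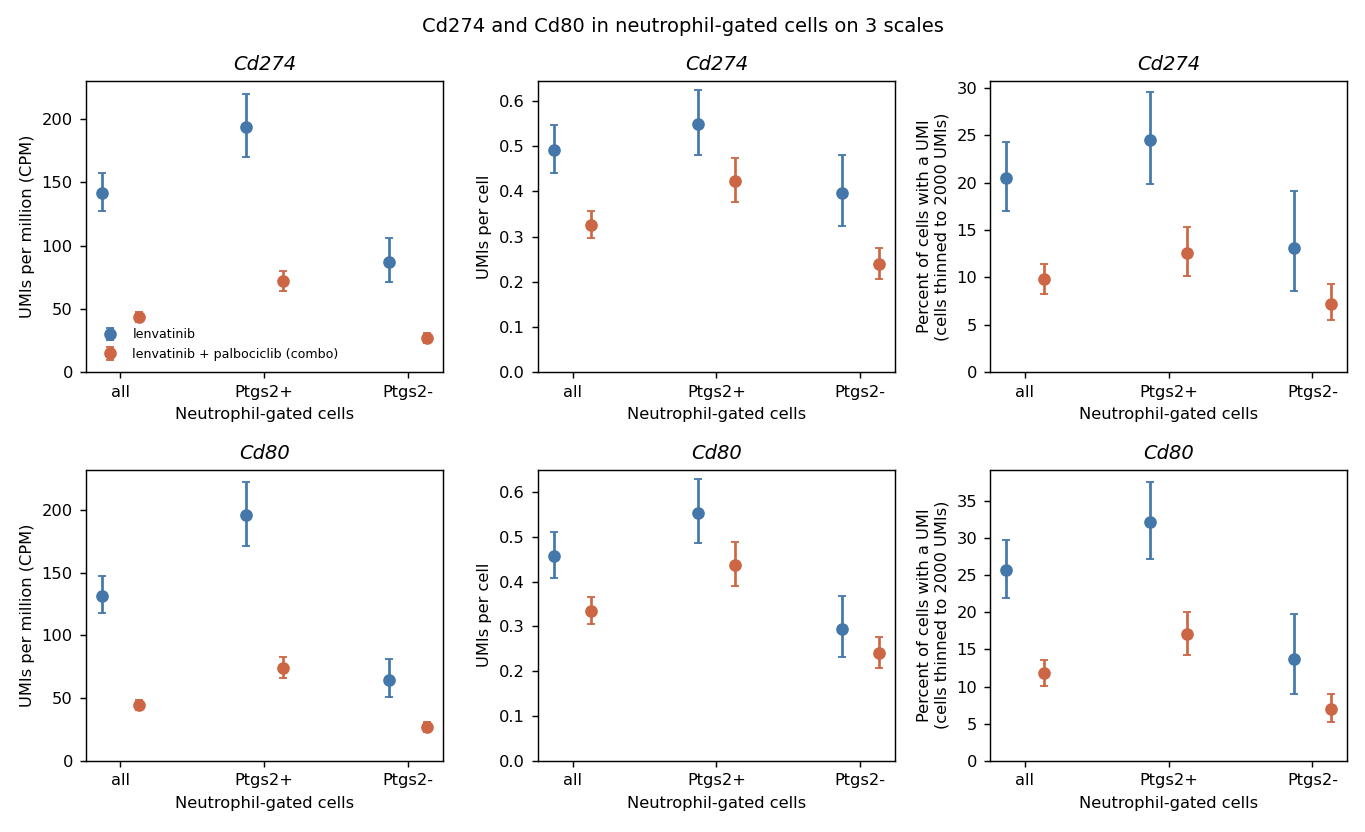
Cd274 (top) and Cd80 (bottom) in neutrophil-gated cells, all and split by Ptgs2, as CPM, as UMIs per cell and as the percent of cells with a UMI after thinning to 2000 UMIs, for lenvatinib (blue) and combo (orange). Bars are exact 95% intervals for counting error (Poisson for the first 2 scales, Clopper-Pearson for the third). Combo points lie lower on all 3 scales, by more in CPM (43.3 against 142 for Cd274) than per cell.

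Neutrophils made up 4.82% of lenvatinib cells and 13.0% of combo cells, and Cd80 differed in direction between all cells and neutrophils. Over all cells Cd80 was at 8.84 and 16.8 CPM, a ratio of 1.90 (1.75 to 2.07), whereas within neutrophils it was 0.337. Neutrophil-gated cells held 37.2% of all Cd80 UMIs under lenvatinib, from 2.50% of all UMIs, and 33.4% under combo, from 12.6% of all UMIs. A further 34.4% and 45.4% lay in cells with several gate genes. Cd86 was also higher over all cells, at 16.8 and 28.3 CPM (1.69, 1.58 to 1.80), with ratios near 1 within cDC1, monocytes/macrophages and B cells. Cells with several gate genes held 441 and 1014 Cd86 UMIs, a CPM ratio of 1.79 (1.60 to 2.01). Cells with no gate gene held 205 and 309, a CPM ratio of 1.57 (1.31 to 1.88). Monocytes/macrophages held 174 and 381, and made up 1.68% and 4.13% of cells. The part of each in the difference over all cells was not tested. For Pdcd1lg2, NK cells held 36.0% of UMIs under lenvatinib and 29.4% under combo, although they were 17.8% and 8.54% of cells. T cells and NK cells together held the most Cd274, Lgals9 and Pvr UMIs of the gated cells in the lenvatinib library, in which they were the most frequent types.

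**Figure D4:**
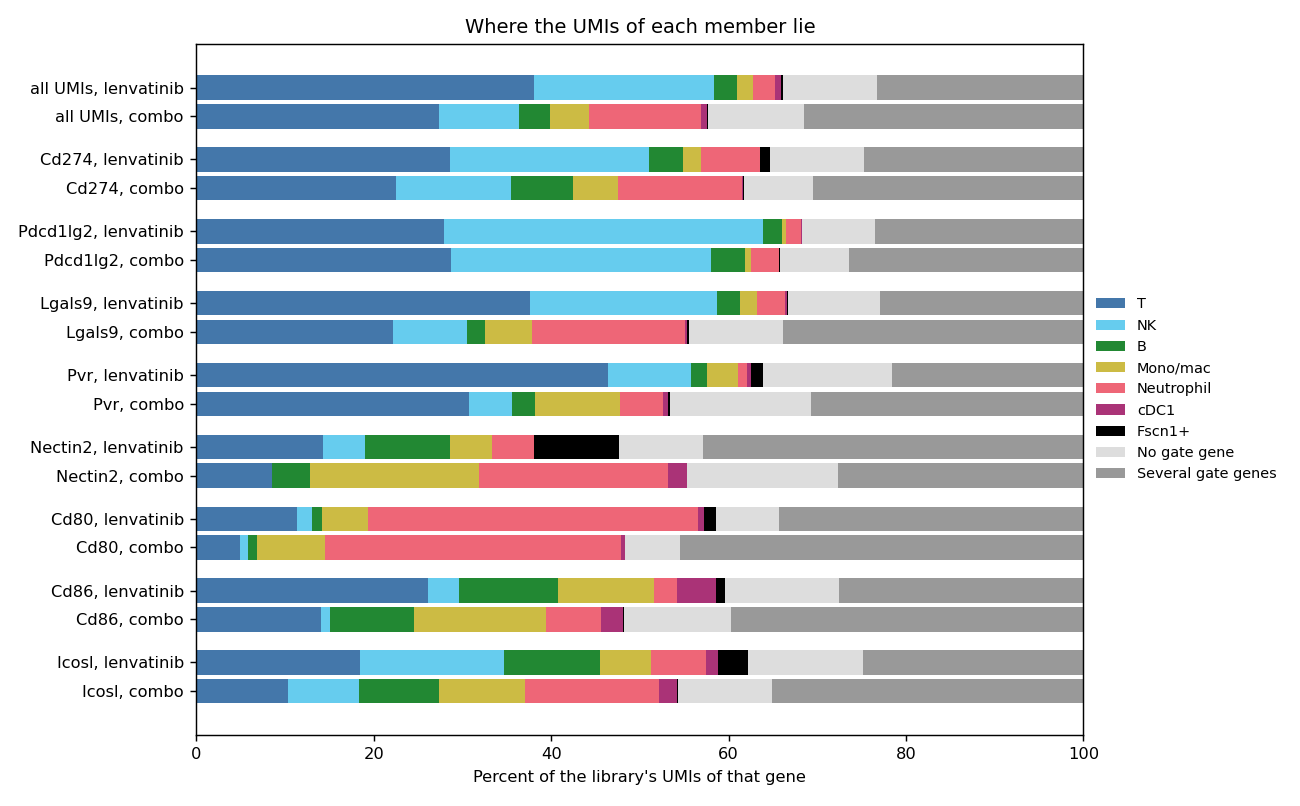
Percent of each library's UMIs of a member that lie in each gated type, in cells with no gate gene (light grey) and in cells with several (dark grey), with all UMIs in the top pair of bars. Cd80 is placed in neutrophils far beyond their share of all UMIs (37.2% against 2.50% under lenvatinib) and Pdcd1lg2 in NK cells (36.0% against 20.3%).

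Within single cells, the members were mostly seen 1 at a time. After thinning to 2000 UMIs, 18.7% of lenvatinib neutrophils and 6.95% of combo neutrophils had UMIs of 2 or more members, compared with 4.43% and 3.29% of T cells, 4.97% and 5.10% of NK cells, 11.7% and 9.76% of B cells and 14.4% and 11.96% of monocytes/macrophages. Among Fscn1-gated cells under lenvatinib it was 17.9% of 28 cells. Cd274 and Cd80 were both seen in 40 of 498 lenvatinib neutrophils, where the product of their separate shares gives 26.2 cells, and in 18 of 1410 combo neutrophils, where it gives 16.3. Cd274 and Pdcd1lg2 were both seen in 24 of 4877 lenvatinib T cells (product 11.8) and 15 of 3714 combo T cells (product 8.45). Cd86 and Icosl were both seen in 13 of 480 lenvatinib B cells (product 6.69). Lgals9 and Pvr were both seen in 11 of 418 combo monocytes/macrophages (product 4.53). In T cells they were both seen in 44 of 4877 lenvatinib cells (product 40.1) and 27 of 3714 combo cells (product 15.3). Some other pairs were above the product as well, such as Cd274 and Lgals9 in lenvatinib NK cells (47 cells, product 39.4). Others were below the product. They included Cd274 and Pvr in lenvatinib T cells (19 cells, product 21.2). Cd274 and Cd86 in lenvatinib B cells (12 cells, product 12.6) and Lgals9 and Cd80 in combo neutrophils (23 cells, product 24.4) were also below. These counts are small and cells of 1 library are not replicates. Only pairs seen together in at least 10 cells of a gate and library were kept. This minimum was set on the joint count, so it can favour pairs above the product.

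Receptors of the members were set beside their ligands. Counts past 2-fold are read against the share of all genes in the same gate, 7.86% in T cells, 7.46% in NK cells, 13.3% in B cells, 12.6% in monocytes/macrophages, 20.6% in neutrophils and 8.55% in cDC1. Of 11 receptors tested in T cells, 0 were higher under combo past 2-fold and 1 was lower, Rgmb, a PD-L2 receptor (3.92 and 1.78 CPM). Pdcd1, which encodes PD-1, was at 27.2 and 47.3 CPM in T cells, a ratio of 1.74 (1.60 to 1.90), Ctla4 at 137 and 187 CPM, Cd28 at 497 and 384 CPM, and Icos at 141 and 169 CPM. In NK cells 1 of 10 was past 2-fold, Ctla4, at 30.3 and 69.3 CPM (2.29, 2.03 to 2.57). In B cells 1 of 5 was, Cd226, which was lower (8.53 and 2.87 CPM), and in cDC1 0 of 3 were. In monocytes/macrophages 4 of 7 (Cd226, Cd28, Ctla4, Icos) and in neutrophils 6 of 7 (Havcr2, Cd44, Cd226, Cd96, Cd28, Icos) were lower under combo past 2-fold. As UMIs per cell, none of these 6 was past 2-fold in neutrophils, beside 30.4% of all genes on that scale. Their ratios ran from 0.532 for Cd28 to 0.982 for Cd44. Cd226, Cd28 and Icos are lymphocyte genes, at 14.3, 65.2 and 26.1 CPM in lenvatinib neutrophils against 132, 497 and 141 CPM in lenvatinib T cells. Ctla4, also a lymphocyte gene, was at 16.8 and 13.5 CPM in neutrophils, with an interval that held 1 (0.804, 0.565 to 1.17), and Pdcd1 had 3 and 13 UMIs there.

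Among other ligands of these families, 11 of 12 were in the matrices, and Hhla2 was not matched. In T cells 1 of 8 tested was past 2-fold (Nectin3, lower, 17 and 4 UMIs), in NK cells 1 of 5 (Ceacam1, higher, 1.34 and 4.09 CPM), in B cells 0 of 3, in cDC1 0 of 4, in monocytes/macrophages 2 of 6 (Cadm1 and Btla, lower) and in neutrophils 1 of 4 (Btla, lower, and 1.06 as UMIs per cell). The neutrophil share was near that of all genes. Vsir, which encodes VISTA, was at 254 and 216 CPM in neutrophils and 146 and 198 CPM in monocytes/macrophages.

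Of 18 known inducers and regulators of Cd274, T cells had 1 past 2-fold (Batf3, higher, 0.884 and 2.39 CPM), NK cells 1 (Ifngr2, higher, 2.07 and 4.34 CPM) and B cells 1 of 16 tested (Ifng, lower). Monocytes/macrophages had 2 (Ifng and Ciita, lower), neutrophils 3 of 17 (Ifng, Jak2 and Ciita, lower) and cDC1 1 of 15 (Ifngr2, higher). In none of these gates did the count stand above the share of all genes. As UMIs per cell, the neutrophil ratios were 0.533 for Ifng, 0.92 for Jak2 and 0.876 for Ciita. Ifng, which encodes interferon-gamma, was at 172 and 239.5 CPM in T cells and 313.5 and 299.6 CPM in NK cells. Of 9 interferon-gamma targets, 0 were past 2-fold in T cells and in B cells (7 tested), 1 of 8 in NK cells (Iigp1, 8.79 and 1.98 CPM), 1 in monocytes/macrophages (Iigp1), 2 in neutrophils (Cxcl9 and Irgm1) and 2 of 6 in cDC1 (Cxcl9 and Cxcl10), all lower under combo. The list's median log2 ratio was -0.36 in T cells and -0.47 in NK cells, beside -0.13 and -0.11 over all genes. It was -0.12 in B cells beside -0.31, -0.24 in monocytes/macrophages beside -0.19, -0.54 in neutrophils beside -0.45, and -0.17 in cDC1 beside -0.04. The list was thus below all genes by the most in NK cells and above them in B cells.

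Across the 14 values of 7 gates in 2 libraries, the genes most like each member by Pearson correlation of log2(CPM + 1) were named among 10495 genes with at least 10 CPM in a gate. The 14 points share libraries and include gates of 7 to 39 cells, so these values are descriptions. For Cd80 they were Ptafr, the receptor of platelet-activating factor (r = 0.974, Spearman rho = 0.943), Slc7a11 (0.963) and Gm21188 (0.942). For Cd86 they were P2rx4 (0.938), Cd180 (0.932) and Plekho1 (0.931), for Pdcd1lg2 Ptprcap, Rhof and Xrcc5 (0.925, 0.925 and 0.923), and for Icosl Bmp2k, Myo1c and Cep170 (0.935, 0.908 and 0.897). For Cd274 they were Phf21a, Hbp1 and Crebl2 (0.92, 0.913 and 0.908), for Lgals9 Dhx34, Sidt2 and Tmem120a (0.914, 0.903 and 0.897), and for Pvr Ikbkb, Fam49a and Atg14 (0.909, 0.908 and 0.897). The values for Nectin2, led by Adgrg6 (0.898), rest on 68 UMIs. Among the members, the lowest r was that of Cd86 and Pdcd1lg2 (r = -0.74, rho = -0.64), and the lowest rho that of Cd80 and Pdcd1lg2 (r = -0.59, rho = -0.68).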

How the data were processed

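Live CD45+ cells from mouse liver tumors were profiled with 10X 3' v3 chemistry in 2 libraries. The authors deposited whole-number UMI counts, not normalized, of reads mapped to mm10 with Cell Ranger (version 5.0.1 in the labels, 6.0.1 in the matrix header). No barcode held fewer than 500 UMIs. As in the study's methods, barcodes past 6000 detected genes or past a mitochondrial share of 25% were dropped, which left 14201 lenvatinib cells (95123833 UMIs, median 5541) and 11613 combo cells (90165246 UMIs, median 5754). Neither strand nor pooling of animals is given in the sources used here. The 8 genes, gates, markers and pathway lists were chosen with earlier results of these data known. Every pathway gene past 2-fold was to be named in each gate compared, with the 3 genes most correlated with each member.

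Counts were summed per gate and library and given as CPM of the gate's UMIs, with exact Poisson 95% intervals. Ratios had exact conditional (Clopper-Pearson) intervals from scipy 1.17.1, and no ratio was formed where both counts were 3 or fewer. Intervals cover counting error only and not the spread between mice. For shares, each cell was thinned to 2000 UMIs, which left out 318 and 107 T cells, 159 and 12 NK cells, 60 and 37 B cells, 51 and 62 monocytes/macrophages and 187 and 102 neutrophils. With 1 library per treatment no p-value was computed. Doublets, called with Scrublet in scanpy 1.11.5 (634 and 320 cells, 4.46% and 2.76%), were removed only in an alternative. Ratio calls and their intervals were tested on simulated counts. Thinning was checked on S100a8 and Lgals9 in the combo library itself. Alternatives covered the gates, doublets, CPM total, cell filter, cell weighting, thinning depth, minimum count and fold. Added after the data were seen were the gate by most UMIs, a Ccr7 requirement for Fscn1-gated cells, UMIs per cell, totals without 5 neutrophil markers, and removal of shared barcodes. Coordinates came from GENCODE M21, which matched 8 of 8 members. A gene of the regulator list is not reported here.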

Additional observations from a re-analysis of the deposited data

Results flagged for a closer look

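Pdcd1lg2 was the member whose ratio of combo to lenvatinib had an interval above 1 in some gates and below 1 in another. It was 1.36 in T cells and 1.77 in NK cells, against 0.356 in neutrophils, where 34 and 58 UMIs were counted. Within T cells it was 1.51 in Cd8a+ Cd4- cells and 0.718 in Cd4+ Cd8a- cells. With 1 library per treatment these differences were not tested. The thinned shares of the Cd4+ cells, 6.61% and 6.62%, did not show the lower CPM, and per cell the neutrophil ratio was 0.773. Foxp3+ T cells, which may be among the Cd4+ cells, numbered 388 under lenvatinib and 57 under combo. Their part in the Cd4+ ratio was not tested.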

How the results depend on the processing

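No paired analysis was possible because each treatment had 1 library and no result came from a test. Of 569 recomputed ratios 526 stayed within the counting interval of the reported value, 41 moved out of it and 2 reversed. A reversal was counted only for a ratio past 2-fold with at least 20 UMIs. Both were for Cd86 in Fscn1-gated cells (1.73 with at least 2 gate UMIs, 1.14 as UMIs per cell). Lgals9, Pvr and Cd86 in neutrophils were not past 2-fold and count among those that moved. Their ratios crossed 1, from 0.831, 0.809 and 0.82 in CPM to 1.80, 1.76 and 1.78 as UMIs per cell. Of 1024 recomputed levels 852 stayed within the counting interval of the reported value. Of 224 shares recomputed without thinning or at 1000 UMIs, 77 stayed within the interval of the share at 2000 UMIs and 147 moved out. Removing doublets, removing shared barcodes or the stricter cell filter moved no ratio.

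With gates not exclusive, the neutrophil ratios were 0.459 for Cd274, 0.63 for Pdcd1lg2, 0.595 for Cd80 and 0.687 for Icosl. With each cell weighted the same, they were 0.388 for Cd274 and 0.458 for Cd80 in neutrophils, 0.694 for Lgals9 in B cells and 0.752 for Icosl in monocytes/macrophages. With the gate gene of most UMIs, Cd274 in neutrophils was 0.355. Without the 5 neutrophil markers in the total, Cd274 was 0.356 and Cd80 0.392. As UMIs per cell they were 0.663 and 0.731, and Pdcd1lg2 and Icosl were 0.773 each. The cause was not tested.

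In neutrophils, the count of members past 2-fold, 4, was 1 with gates not exclusive, beside 17.5% of all genes. It was 0 as UMIs per cell (30.4%) and 5 with at least 1 UMI (42.7%). Percents in brackets are the share of all genes past the fold in the same gate and setting. In T cells, 0 became 1 with each cell weighted the same (8.85%) and 2 at 1.5-fold (22.5%). In NK cells, 1 became 0 with at least 2 gate UMIs (7.22%) or with at least 50 UMIs (4.89%). It also became 0 without doublets (7.64%) or with each cell weighted the same (8.47%). It became 2 with at least 1 UMI (28.8%) or at 1.5-fold (22.7%). In B cells, 2 became 1 as UMIs per cell (10.1%) and 3 with the gate gene of most UMIs (15.8%). In monocytes/macrophages, 1 became 0 with gates not exclusive (12.4%), at least 2 gate UMIs (12.5%) or the gate gene of most UMIs (13.3%). It also became 0 with totals without mitochondrial, ribosomal and hemoglobin genes (12%) or without neutrophil markers (12.2%). The same held with each cell weighted the same (16%) and as UMIs per cell (11.2%). It became 2 with at least 1 UMI (35.5%) or at 1.5-fold (30.9%). In cDC1, 0 became 3 with at least 1 UMI (33.5%) and 1 at 1.5-fold (27.1%). Over all cells, 1 became 2 without neutrophil markers in the total (14.1%) or as UMIs per cell (14.5%), and 3 at 1.5-fold (35.6%).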
